A study of Mus musculus with 2 samples.

Results

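The gene microarray data were read for 45 genes of DNA replication and nucleotide synthesis, a list given by name. It holds the factors that license and open replication origins, the replicative polymerases with their clamp and single-strand binding proteins, the enzymes that supply deoxynucleotides, and the cyclins and E2F factor that drive the G1/S step. All 45 genes had at least 1 probe among the 20655 genes that could be named on the array. All 45 were also well above background on both arrays, as were 16885 genes in all.

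RAW264.7 is an established mouse macrophage line that grew from an Abelson murine leukemia virus-induced tumor (ascites) of an adult male BALB/c mouse. The study compared the line treated with vehicle or with 10 μM IR-61, a near-infrared heptamethine cyanine dye that accumulates in mitochondria, both for 24 h in DMEM with heat-inactivated fetal bovine serum. Each condition was 1 culture on 1 single-colour Agilent array. The spread between cultures is therefore unknown, the conditions were compared without a test, and what IR-61 did cannot be told apart from how these particular cultures or arrays happened to differ. In bulk RNA, a changed share of cells in S phase and a changed amount of RNA per cell cannot be told apart either.

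A cell copies its DNA once in each cycle. In G1, the origin recognition complex (ORC) with Cdc6 and Cdt1 loads the MCM2-7 helicase onto origins, and at the G1/S step cyclin E with Cdk2 allows Cdc45 and the GINS complex to turn that helicase on. DNA polymerase α with primase then starts each strand, polymerases δ and ε extend it on the PCNA clamp, and ribonucleotide reductase, thymidylate synthase and thymidine kinase supply the deoxynucleotides. Many of these genes are known targets of E2F transcription factors, and their mRNA is highest around the G1/S step in cycling cells. RAW264.7 cells cycle continuously in culture, unlike most resident macrophages.

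The IR-61 array was brighter as a whole, with a 75th percentile of log2 intensity of 10.79 against 10.30 for vehicle, a shift of 0.49. Each probe is therefore given as its scaled log2 signal, the log2 intensity minus the 75th percentile of its array, and a difference is the scaled log2 signal with IR-61 minus that with vehicle. The median difference of the 16885 genes was 0.10. Each member probe was printed once. Its only error comes from other probes that were printed 10 times: the spread among their spots gave each difference an SD, between 0.095 for bright and 0.47 for dim members, that covers noise within an array only. Of the 16885 genes, 3948 were higher and 2381 lower by more than 2 of these SDs, so a difference past them is common on these arrays. No spot of a member carried an outlier or saturation flag. Of 10 macrophage markers, *Cd68* had no named probe and the other 9 were well above background on both arrays, with differences from −0.83 for *Spi1* to 1.03 for *Adgre1* and a median of −0.02. Of 12 markers of other cell types 9 were well above background, including the collagen genes *Col1a1* (signal 27148 with vehicle and 58670 with IR-61) and *Col1a2* (15029 and 22576), while *Epcam*, *Ncr1* and *Adipoq* were not. The differences of those 9 ran from −0.51 to 0.62, and their part in the values below was not tested.

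Taken as a group, the 45 genes stood slightly higher with IR-61. Their median difference was 0.27, against 0.10 for all genes, 31 of the 45 (68.9%) lay above 0, against 61.2% of all genes, and 28 (62.2%) lay above the median of all genes. The members ranged from −0.92 for *Pola2*, the accessory subunit of polymerase α, to 1.03 for *Dut*, the enzyme that hydrolyses dUTP. Their SD across genes was 0.46, much like the 0.44 of all genes. At a limit of 2-fold, 1 member (2.22%) was higher, against 1.99% of all genes, and none was lower, against 1.39%. At a limit of 1.5-fold, 6 members (13.3%) were higher, against 9.79% of all genes, and 4 members (8.89%) were lower, against 5.69%. These shares are near those of all genes, so the list as a whole did not stand out by the number of large differences.

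**Figure D1:**
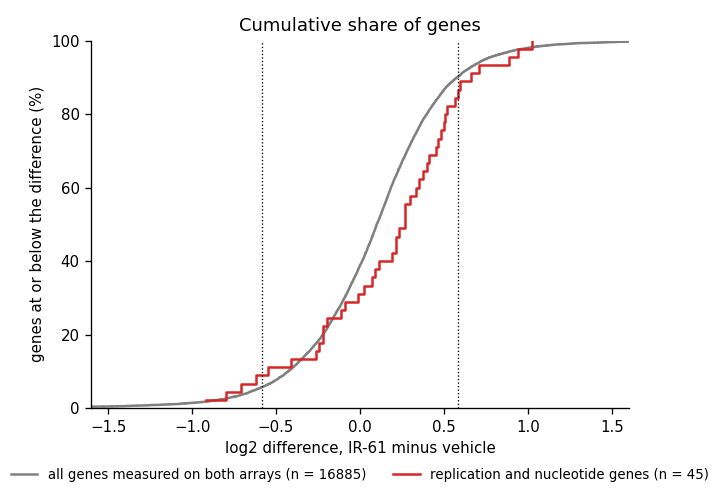
Cumulative share of genes (%, vertical axis) at or below each log2 difference, IR-61 minus vehicle (horizontal axis), for the 45 replication and nucleotide genes (red) and the 16885 genes measured on both arrays (grey), with dotted lines at 1.5-fold lower and higher. The red curve lies to the right of the grey one through its middle, with medians of 0.27 and 0.10, and to its left at the low end.

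The differences are given by role, in groups of 2 to 12 genes. All 8 genes of the nucleotide synthesis and G1/S regulator groups lay above the median of all genes, as did 8442 of the 16885 genes. Further nucleotide enzymes and G1/S regulators, read below, had medians of 0.005 and 0.14. The primase and polymerase group held 3 of the 4 members that were lower by 1.5-fold or more, against 5.69% of all genes. The plot of signals on each array shows these values for every member, and the plot of differences by role shows them with the error from spots.

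**Figure D2:**
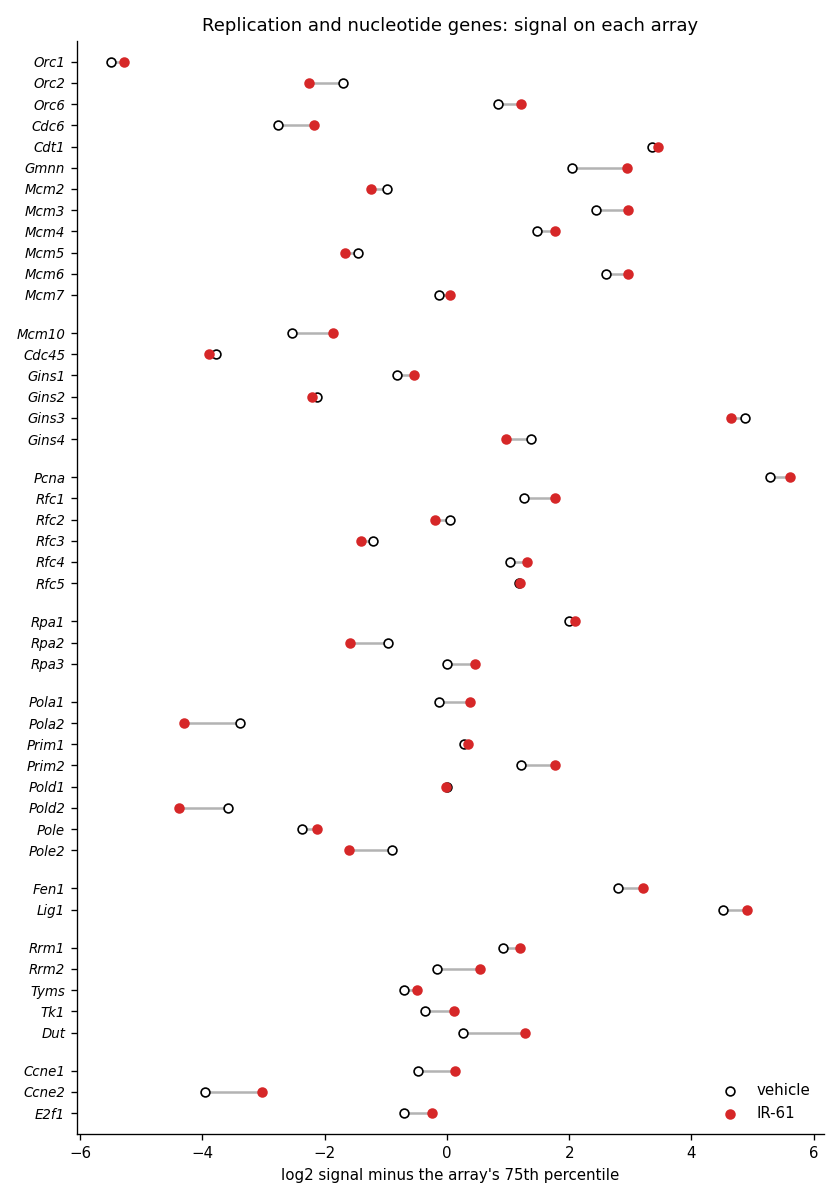
Scaled log2 signal of each of the 45 genes on the vehicle array (open circles) and the IR-61 array (red circles), in blocks by role from origin licensing at the top to G1/S regulators at the bottom. Among the lowest blocks every red circle lies to the right of its open circle, whereas for *Orc2*, *Rpa2*, *Pola2*, *Pold2* and *Pole2* the red circle lies clearly to the left; positions of different probes cannot be compared as levels.

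The 3 G1/S regulators were all higher with IR-61, where 61.2% of all genes lay above 0, and their median difference was 0.60. *Ccne2*, one of the cyclin E genes that activate Cdk2, had a scaled log2 signal of −3.96 with vehicle and −3.02 with IR-61. This made it 1.92-fold higher, a difference of 0.94 against an SD of 0.23 expected from spots. The probe was dim, with an unscaled signal of 81.1 and 218 on the arrays, and with normexp background correction the difference was 0.46. *Ccne1*, the other cyclin E gene, had scaled log2 signals of −0.47 and 0.13 and a difference of 0.60 ± 0.19 (SD from spots). A dimmer probe of *Ccne1* was also higher, with unscaled signals of 51.9 and 156. *E2f1*, a transcription factor that activates S-phase genes, went from −0.70 with vehicle to −0.24 with IR-61, a difference of 0.46 ± 0.19.

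The 5 nucleotide synthesis genes were likewise all higher, where 61.2% of all genes lay above 0, and their median difference was 0.48. *Dut*, which keeps uracil out of DNA by breaking down dUTP, had a scaled log2 signal of 0.26 with vehicle and 1.28 with IR-61. It was 2.04-fold higher, the only member past 2-fold, at 10.8 times the SD from spots, and 98.2% of all measured genes had a lower difference. Over the settings of processing its difference ran from 0.94 to 1.51, so it was not past 2-fold under each. *Rrm2*, the small subunit of ribonucleotide reductase, had scaled log2 signals of −0.16 and 0.55 and was 1.63-fold higher. Its partner *Rrm1*, the large subunit, had 0.93 and 1.20 and was 1.21-fold higher. Both reductase subunits were thus above the median of all genes, and the gap between them was 0.44 against an SD of 0.13 from spots. *Tk1*, the cytosolic thymidine kinase of the salvage path, had a difference of 0.48 ± 0.19. *Tyms*, thymidylate synthase, had the smallest difference of the group, 0.21 ± 0.19, which is close to its error. Among *Fen1*, the flap endonuclease, and *Lig1*, the ligase that seals Okazaki fragments, the differences were nearly the same, 0.41 and 0.40, each with an SD of 0.095.

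**Figure D3:**
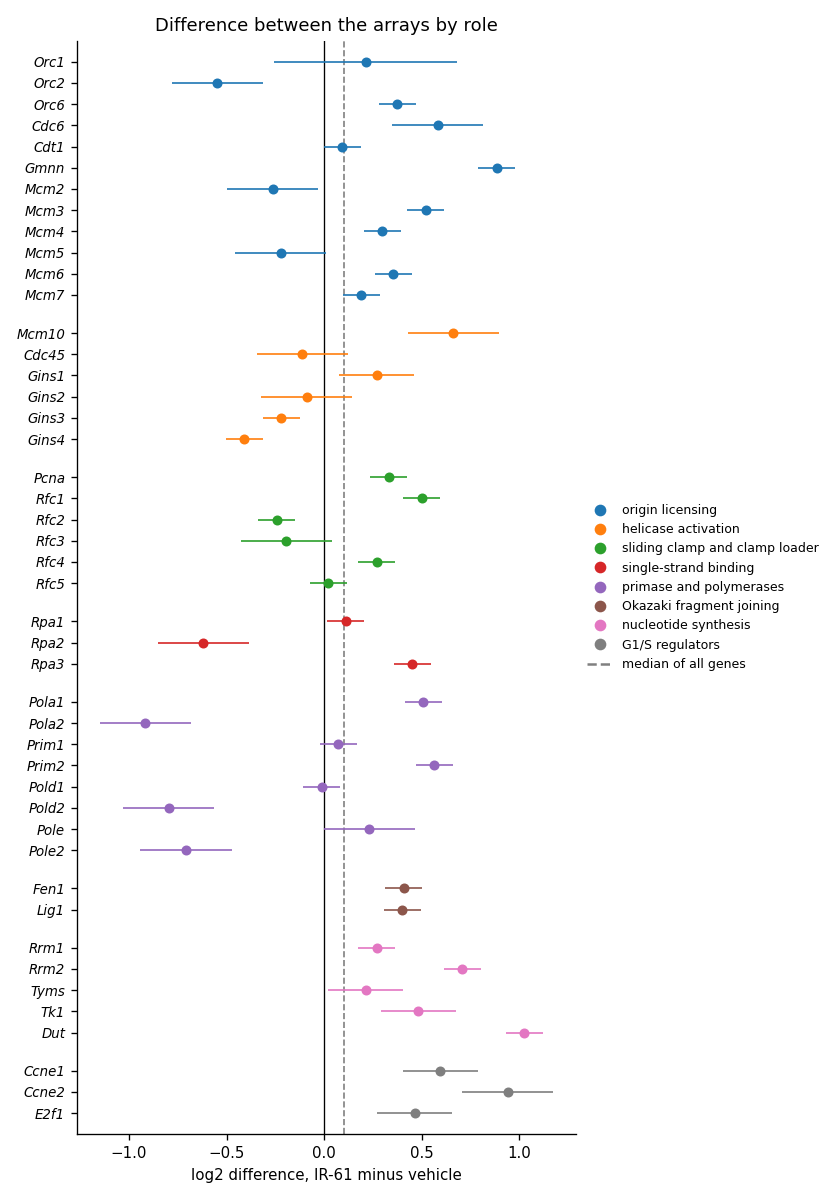
Log2 difference (IR-61 minus vehicle) of each of the 45 genes by role, with bars of 1 SD expected from the spread between spots on an array and a dashed line at the median of all genes, 0.10. Points of the nucleotide synthesis and G1/S groups, from 0.21 to 1.03, all lie to the right of the dashed line, and those of *Pola2*, *Pold2* and *Pole2* lie farthest to the left.

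The 12 origin licensing genes had a median difference of 0.26, with 9 above 0 and 3 below, where 61.2% of all genes lay above 0. *Gmnn*, which encodes geminin, the inhibitor that binds Cdt1, was the highest of the 12. Its scaled log2 signal was 2.05 with vehicle and 2.94 with IR-61, 1.85-fold higher. *Cdt1* itself had 3.36 and 3.45, a difference of 0.09 that is no larger than its SD of 0.095. *Cdc6*, which acts with Cdt1 in loading the helicase, had −2.76 and −2.17, a difference of 0.58 ± 0.23 that lay just under the 1.5-fold limit of 0.585. A dimmer *Cdc6* probe, with unscaled signals of 11.6 and 42.6, was well above background on the IR-61 array alone. Its SD from spots was 0.47, and it is not counted as a second measure of the difference. Of the ORC subunits, *Orc2* was lower, with scaled log2 signals of −1.70 and −2.25 and a difference of −0.55 ± 0.23, *Orc6* was higher by 0.38 ± 0.095, and *Orc1*, a dim probe, had a difference of 0.21 within its SD of 0.47.

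The subunits of the MCM2-7 ring differed in direction. *Mcm3*, *Mcm6*, *Mcm4* and *Mcm7* had differences of 0.52, 0.35, 0.30 and 0.19, each with an SD of 0.095. *Mcm2* and *Mcm5* had differences of −0.26 and −0.22, each about as large as its SD of 0.23. Without scaling between the arrays both were above 0, at 0.22 and 0.27, where the median of all genes was 0.59. The gap between *Mcm3* and *Mcm2*, the highest and lowest of the 6 subunits, was 0.79 on the log2 scale. It was 3.11 times the SD for a pair fixed beforehand, and picking the extremes widens a gap. That SD covers noise between spots only, and the differences of all genes had an SD of 0.44. How often unrelated genes lie as far apart was not tested.

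The promoters of *Mcm3*, *Mcm5*, *Mcm6* and *Mcm7* and of some other members carry a motif that E2F factors recognise, while that of *Mcm2* held no match and *Mcm4* had no window to search. They are shown because E2F control is what many of these genes are known to share. Promoter windows of 250 bases before to 50 bases after the start site were taken from RefSeq (GRCm38.p6) and were held for 36 of the 45 genes. They were searched on both strands for TTTCGCGC or TTTGGCGC, which can overlap where a site is read from both strands. Of the 36 genes 10 (27.8%) held a match, against 1.49% of 13422 measured genes with a window and 0.93% of all 27025 genes with one. Stretches of at most 30 bases around the match are printed 5′ to 3′ on the strand of the gene, with the matched bases in capitals and a match to the opposite strand shown as its complement.

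Mcm3 (chr1:20820263-20820285, minus strand): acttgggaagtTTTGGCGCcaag
Mcm5 (chr8:75109347-75109376, plus strand): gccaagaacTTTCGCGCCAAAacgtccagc
Mcm6 (chr1:128359795-128359824, minus strand): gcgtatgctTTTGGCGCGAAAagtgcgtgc
Mcm6, a place nearer the start site (chr1:128359734-128359763, minus strand): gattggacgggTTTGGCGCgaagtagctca
Mcm7 (chr5:138171849-138171878, minus strand): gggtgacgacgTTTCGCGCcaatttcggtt
Orc1 (chr4:108579416-108579445, plus strand): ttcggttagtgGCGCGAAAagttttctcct
Pola1 (chrX:93632275-93632304, minus strand): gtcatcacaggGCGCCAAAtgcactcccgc
Pole2 (chr12:69228162-69228191, minus strand): cgtcggcggtgGCGCCAAAtcgcgaacatg

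In *Mcm5* and in the more distant place of *Mcm6*, 2 matches on opposite strands overlapped. *Cdt1*, *Lig1* and *Rfc3* held the remaining matches. The 10 genes with a match had a median of 0.20 and ranged from −0.71 for *Pole2* to 0.52 for *Mcm3*. Of the 10, 7 lay above 0, where 61.2% of all genes did. The 26 genes without one had a median of 0.27, with 18 above 0, and included *Dut*, *Rrm2*, *Mcm10* and *Ccne1*, the members with a window that were higher by 1.5-fold or more, as well as *Pola2*, *Pold2* and *Rpa2*, which were lower by as much. CCAAT, a box common in cell cycle promoters, was found on either strand in 22 of the 36 genes (61.1%) and in 42.3% of measured genes with a window, and the 22 members with it had a median of 0.20, against 0.33 for the 14 without. A match is only a run of letters, and the window of another start site of the same gene may differ. Only exact copies of TTTCGCGC or TTTGGCGC were counted, so a gene without a match may still hold another form of the E2F motif.

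Among the 6 genes that activate the helicase, *Mcm10* stood apart from the rest. *Mcm10*, which joins the helicase at the start of unwinding, had scaled log2 signals of −2.53 and −1.87 and was 1.58-fold higher, a difference of 0.66 ± 0.23. The 4 GINS subunits, which bind Cdc45 and MCM2-7 in the active helicase, had a median difference of −0.15. *Gins4* had 1.38 with vehicle and 0.97 with IR-61, a difference of −0.41 that is 4.32 times its SD of 0.095. *Gins3* was also lower, by −0.22 ± 0.095, *Gins2* had −0.09 ± 0.23 and *Gins1* 0.27 ± 0.19. *Cdc45* had a difference of −0.11, within its SD of 0.23. Without scaling between the arrays, *Gins2*, *Gins3*, *Gins4* and *Cdc45* all came out above 0, at 0.40, 0.27, 0.08 and 0.38, where the median of all genes was 0.59.

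*Pcna*, the sliding clamp that holds polymerases on DNA, had scaled log2 signals of 5.28 and 5.61 and was 1.26-fold higher. The gene table lists pseudogenes named *Pcna-ps1* and *Pcna-ps2*, and *Tyms-ps* for *Tyms*. Whether their transcripts reach these probes was not tested, since probe sequences were not used here. Of the clamp loader, *Rfc1*, its large subunit, was higher by 0.50 ± 0.095 and *Rfc2* lower, at −0.24 ± 0.095. Without scaling *Rfc2* and *Rfc3* were above 0, at 0.25 and 0.29, where the median of all genes was 0.59. *Rfc4* had 0.27 with its brighter probe and −0.13 ± 0.23 with another one, *Rfc3* had −0.19 ± 0.23 and *Rfc5* 0.02. The gap between *Rfc1* and *Rfc2*, again picked as the highest and lowest subunit, was 0.74. It was 5.55 times the SD from spots for a pair fixed beforehand, where the differences of all genes had an SD of 0.44. The subunits of this complex thus lay on both sides of 0, as did all genes, of which 61.2% lay above it.

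The single-strand binding protein RPA is a trimer, and its 3 genes differed in direction. *Rpa2*, the middle subunit, had scaled log2 signals of −0.96 with vehicle and −1.58 with IR-61, 1.54-fold lower, a difference of −0.62 ± 0.23. *Rpa3*, the small subunit, had −0.0001 and 0.45, a difference of 0.45 ± 0.095. *Rpa1*, the large subunit that binds most of the DNA, had a difference of 0.11, close to the median of all genes.

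The widest gap between subunits of the 9 complexes compared was that of polymerase α with primase. *Pola2*, the accessory subunit of polymerase α, had scaled log2 signals of −3.39 with vehicle and −4.31 with IR-61. It was 1.89-fold lower, a difference of −0.92 ± 0.23, and its unscaled signals were 120 and 89.4. *Pola1*, the catalytic subunit of the same enzyme, had −0.14 and 0.37 and was 1.42-fold higher. *Prim2*, the large primase subunit, was 1.48-fold higher, a difference of 0.56 ± 0.095, and *Prim1*, the catalytic primase subunit, had 0.07 ± 0.095. From *Prim2* to *Pola2*, picked as the extremes of this complex, the gap was 1.48 on the log2 scale, or 2.79-fold. It was 5.87 times the SD from spots for a pair fixed beforehand, and picking the extremes widens a gap. The differences of all genes had an SD of 0.44, and gaps between unrelated genes were not tested. A ratio of 2 subunits shows unequal differences within the complex and does not depend on the scaling by a single number per array. It does depend on background correction: with normexp the difference was −0.67 for *Pola2* and 0.50 for *Prim2*.

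*Pold2* and *Pole2* of the other replicative polymerases were lower as well. *Pold2*, an accessory subunit of polymerase δ, had scaled log2 signals of −3.58 and −4.38 and was 1.74-fold lower, at −0.80 ± 0.23, with unscaled signals of 106 and 85.4. Its catalytic partner *Pold1* had a difference of −0.01. *Pole2*, an accessory subunit of polymerase ε, had −0.90 and −1.61 and was 1.63-fold lower, at −0.71 ± 0.23. The catalytic subunit *Pole* had −2.36 and −2.13, a difference of 0.23 equal to its SD, and a dimmer *Pole* probe was not well above background on either array. Further accessory subunits, which are not among the 45 genes, lay on both sides of 0, with 0.23 ± 0.095 for *Pold3*, −0.16 ± 0.095 for *Pold4*, −0.11 ± 0.095 for *Pole4* and −0.95 ± 0.23 for *Pole3*. *Pola2*, *Pold2*, *Pole2*, *Rpa2* and *Orc2* were below 0 under all 13 settings of processing, the values nearest to 0 being those without scaling, from −0.43 for *Pola2* to −0.06 for *Orc2*.

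The differences varied with the brightness of the probe. Among the 28 members with a mean log2 intensity of 10 or more the median difference was 0.36, and among the 16 members between 6 and 10 it was −0.15. For all genes the corresponding medians were 0.10 and 0.08. Across the 45 members, which share both arrays, the correlation of difference with mean log2 intensity was 0.30 (Pearson) and 0.28 (Spearman). Of the 4 genes lower by 1.5-fold, all were in the dimmer class, and so did *Ccne2* and *Mcm10* among the higher ones. What part brightness has in the split was not tested.

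Further genes of the same pathway were read for comparison, and their medians lay nearer to 0. The 28 other replication proteins had a median difference of −0.02. Of the 28, 13 lay above 0, where 61.2% of all genes did, and 9 lay above the median of all genes. The list was led by *Ticrr* and *Clspn*, at 0.97 ± 0.38 and 0.65 ± 0.38 from dim probes, which encode an initiation factor and a checkpoint adaptor. The lowest were *Pole3*, a small subunit of polymerase ε, at −0.95 ± 0.23 and *Orc5*, another ORC subunit, at −0.65 ± 0.23. At 1.5-fold, 2 of these 28 genes were higher and 2 lower, against 9.79% and 5.69% of all genes.

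The 24 other nucleotide enzymes had a median of 0.005. Their highest values were 0.61 for *Samhd1*, which degrades deoxynucleotides, and 0.58 for *Rrm2b*, an alternative small subunit of ribonucleotide reductase. The lowest were *Adsl* and *Gart* of purine synthesis, at −0.91 ± 0.23 and −0.64 ± 0.23. In this list 1 of 24 genes was higher and 2 were lower by 1.5-fold or more, against 9.79% and 5.69% of all genes.

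Of 28 other G1/S regulators, *Skp2* had no named probe and the other 27 had a median of 0.14, or 0.02 with the mean over the probes of a gene. *Tfdp2*, a partner of E2F proteins, and *E2f6*, a repressor of the family, were the highest, at 0.81 ± 0.23 and 0.60 ± 0.095. The lowest were *Cdkn1a* and *Cdkn1c*, inhibitors of cyclin-dependent kinases. Other such inhibitors in the list were not lower: *Cdkn2c* had 0.35, *Cdkn2d* 0.20 and *Cdkn1b* 0.06, each ± 0.095. *Cdkn1a*, which encodes p21, had unscaled signals of 1064 with vehicle and 758 with IR-61 and was 1.97-fold lower after scaling, and *Cdkn1c*, which encodes p57, had 40577 and 30487 and was 1.87-fold lower after scaling. At 1.5-fold 2 of the 27 genes were higher and 4 lower, against 9.79% and 5.69% of all genes. Besides *Cdkn1a* and *Cdkn1c*, the lower ones were *Myc*, at −0.88 ± 0.23, and *E2f2*, at −0.61 ± 0.095.

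**Figure D4:**
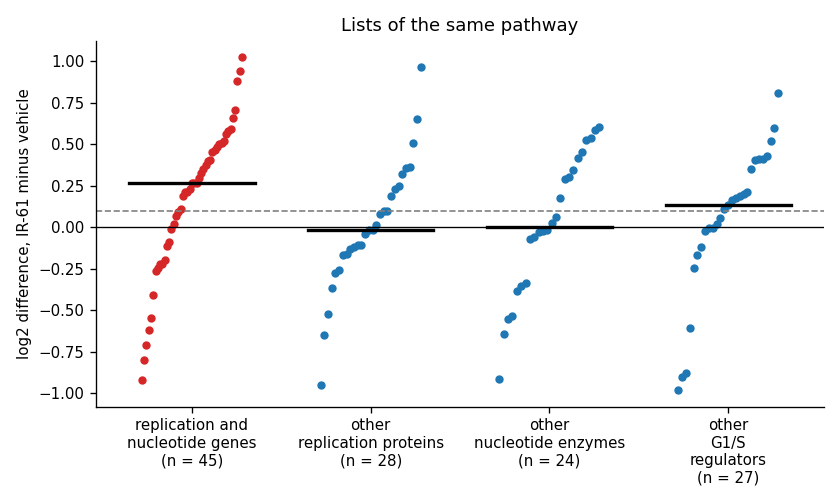
Log2 difference (IR-61 minus vehicle, vertical axis) of each gene, in rising order within each list, for the 45 replication and nucleotide genes (red) and 3 further lists of the pathway (blue), with black bars at the list medians and a dashed line at the median of all genes. The bars stand at 0.27, −0.02, 0.005 and 0.14, the dashed line stands at 0.10, and each list spans both sides of 0. All lists were chosen with earlier results of these data known.

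The median of the 45 genes was between 0.19 and 0.27 under every setting but the absence of scaling. Without scaling it was 0.76, because the whole IR-61 array was brighter and the median of all genes went to 0.59. Measured from the median of all genes in the same setting, the members' median lay between 0.13 and 0.26.

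**Figure D5:**
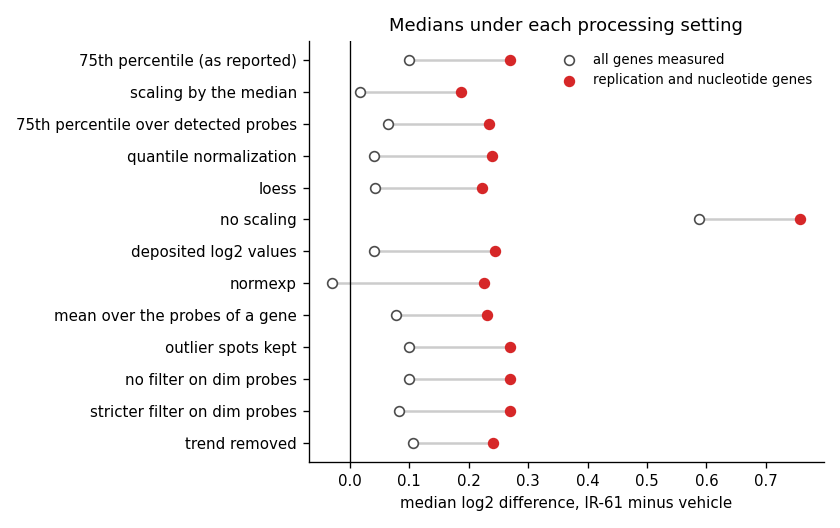
Median log2 difference (IR-61 minus vehicle) of the 45 replication and nucleotide genes (red) and of all genes measured on both arrays (open circles) under the reported setting, in the top line, and 12 alternatives. In each line the red circle lies to the right of the open one, and without scaling both move to the right, to 0.76 and 0.59.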

How the data were processed

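The authors hybridized Cy3-labelled cRNA of each culture to a one-colour Agilent array (design on mm9) and deposited the intensity of each spot, background-subtracted and detrended by Feature Extraction (11.0.1.1 in the file headers, 11.0.0.1 in the submitters' processing notes), unscaled between arrays. They also deposited log2 values per probe. Both columns had a median of 7.15 and equal quartiles, as quantile normalization gives, and followed the scanner log2 intensities of their arrays (r across probes 0.9995 and 0.9988), so scale and direction are known from the values and the normalization is not given in the sources used here.

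Control and outlier-flagged spots were left out and log2 intensities averaged per probe. Of 39419 probes, 27224 were named through RefSeq accessions (GRCm38.p6 gene table, names only). A gene took its brightest probe. The SD expected from spots was pooled from 399 probes printed 10 times, in 3 signal classes. The members and lists were chosen with earlier results of these data known, and the genes described in full are the extremes of each role, those past 1.5-fold and, of the other lists, the 2 highest and lowest. No test was run between single arrays. The number of arrays limits the precision. Only the scaling and the choice of the brightest probe were tested on simulated data, in which every probe had the noise of a bright one. The software was limma 3.58.1 in R 4.3.3, and in Python 3.11.15 the packages matplotlib 3.10.9, statsmodels 0.14.6, pandas 2.3.3 and numpy 2.4.6.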

Additional observations from a re-analysis of the deposited data

How the results depend on the processing

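No paired analysis was possible because vehicle and IR-61 were each a single array, compared without a test. Counts are named here if an alternative altered them by over 1.5 times, and medians and differences if it moved them by over their SD from spots. The count of members higher by 2-fold or more, 1 as reported, was 0 with normexp (offset 50, on the median signal), the deposited log2 values, loess, quantile normalization, median scaling and a 75th percentile taken over detected probes, 9 without scaling and 2 over single probes. The count lower by 2-fold was 0 as reported and 1, *Pola2*, with quantile normalization, loess and the deposited values. At 2-fold, shares of all genes are not given for the alternatives. The count higher by 1.5-fold, 6 as reported, was 28 without scaling and 3 with normexp, where 5.12% of all genes were higher. The count lower by 1.5-fold, 4 as reported, was 0 without scaling, where 1.14% of all genes were lower. Without scaling 50.5% of all genes were higher by 1.5-fold and the members' median was 0.76, while its distance from the median of all genes stayed at 0.17. Of the single members, 28 were above 0 and 5 below 0 under all settings, and 12 took both signs, with no such count over all genes to set beside them. Of these 12, 8 were above 0 only without scaling, and *Rfc5*, *Prim1* and *Pold1* lay near 0 as reported. *Orc1*, at 0.21 ± 0.47 from a dim probe, was −0.14 with normexp. Normexp moved 7 of the 45 members and the mean over probes moved 2 beyond their SD, and no scaling moved all 45. On the IR-61 array 4 spots with a local background above their signal were given the median background before normexp. Under the stricter filter on dim probes 44 members remained, without *Orc1*. A trend fitted across the array surface was worth 0.078 or less at any member probe. Of the further lists, the median of the other G1/S regulators was 0.02 with the mean over probes, and the medians of the other replication proteins and nucleotide enzymes, −0.12 and −0.09 from that of all genes as reported, were 0.004 and 0.02 from it with normexp. Without scaling the 3 medians were 0.63, 0.47 and 0.49.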
